A study of Mus musculus with 6 samples.

Results

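Melanin is made in melanosomes, organelles that receive their enzymes and transporters from endosomes. The genes described here encode the machinery of that delivery, and loss of each lightens the coat of the mouse. In people, loss of most of them gives Hermansky-Pudlak syndrome, a form of albinism with a bleeding disorder, and loss of *LYST* gives Chediak-Higashi syndrome, in which lysosomes and melanosomes are enlarged. The 10 members were selected by name, through the mouse symbol of their row: *Hps1*, *Hps4*, *Hps3*, *Hps5*, *Hps6*, *Dtnbp1*, *Ap3b1*, *Ap3d1*, *Lyst* and *Vps33a*. All 10 were among the 18324 gene rows of the count table, and all 10 were among the 11324 that passed the filter on low counts.

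Both groups were untreated B16-F10 cells, a mouse melanoma line, separated by flow sorting on light scatter into high-pigmented cells (HPC) and low-pigmented cells (LPC), with 3 libraries of each. One library of each group shares a suffix in its title with one of the other, and the 3 sets are called pairs 1, 2 and 3. The labels do not say what the suffix marks, nor whether the sorts came from separate cultures, so p values measure the spread between these libraries, which may be technical. The groups differ in the sorting gate only as far as the labels state, and they are 2 fractions of 1 cultured line, not cells of the skin. Levels are in CPM, the usual unit of counts scaled to normalised library size. Reads came from the 3′ end of transcripts, so a count does not scale with transcript length and levels of different genes are set side by side without a length correction.

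Gene counts ranged from 3819605 to 7311131 per library. Pair 2 stood apart: a single row, RP23-81C12.3, took 53.9% of gene counts in its HPC and 27.1% in its LPC library, against 3.54% to 5.03% elsewhere. Of the genes tested, 20.3% and 7.54% had no count in those 2 libraries, against at most 0.468% in the other 4. The 10 members together received 689 reads in the HPC and 1582 in the LPC library of pair 2, and 1877 to 3744 elsewhere. The summed level of 8 melanocyte-lineage markers was 4443 to 20746 CPM in HPC and 6189 to 17286 CPM in LPC. The 4 fibroblast marker rows summed to 0.935 to 33.2 CPM in HPC and 6.30 to 14.6 CPM in LPC, and the 2 leukocyte rows to at most 6.402 CPM. The single endothelial row reached 11.6 CPM in 1 HPC library and 0 in all LPC libraries. The table had rows for 4 of 7 fibroblast, 2 of 6 leukocyte, 1 of 3 endothelial and 0 of 2 keratinocyte markers.

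No member was called different between high- and low-pigmented cells. In edgeR's quasi-likelihood test over all 6 libraries 0 of 10 members had an adjusted p under 0.05, where 0% of the 11324 genes tested did. At an unadjusted p under 0.05 there were also 0 of 10 members, against 0.336% of genes. That share is far below the threshold itself, so this fit, which ignores the pairs, could hardly call any gene. The absence of calls is therefore not evidence that a member is unchanged. DESeq2 and limma-voom with sample weights and the pair as a block also called 0 of 10 members, where they called 0.0275% of the 18197 genes with an adjusted p (DESeq2, with its own independent filtering) and 0.3% of genes (limma-voom). In none of the 10 did all values of one group lie above all values of the other, a pattern found in 5.74% of genes tested. Within pairs, 3 of 10 members had the same sign in all 3 pairs, close to the share of 30.1% over all genes tested. The 3 members were the subunits of 1 complex, BLOC-2: *Hps3* and *Hps5* were higher in HPC in each pair, and *Hps6* was lower in each.

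The members belong to several complexes, except for *Lyst*, which stands alone. BLOC-3 (*Hps1*, *Hps4*) is the exchange factor that activates the small GTPases Rab32 and Rab38. BLOC-2 (*Hps3*, *Hps5*, *Hps6*) directs endosomal carriers to the melanosome, and BLOC-1, which contains dysbindin (*Dtnbp1*), shapes the tubules that those carriers bud from. The AP-3 adaptor (*Ap3b1*, *Ap3d1*) selects tyrosinase as cargo on endosomes. *Vps33a* encodes a subunit of the HOPS and CORVET tethers that drive fusion of endosomes and lysosomes. *Lyst* encodes a very large protein with a BEACH domain that limits the size of lysosome-related organelles.

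For the members that hold the hexamer CACGTG, short stretches at or near the annotated start are shown. Whether holding the hexamer goes with the direction of change was not tested. CACGTG is an E-box that leucine-zipper factors of the MITF and TFEB family are known to bind, and CATGTG is the core of the M-box. The window searched was RefSeq's (GRCm38.p6) 250 bases before to 50 bases after a gene's start, and all 10 members had one. CACGTG, which reads the same on both strands, lay in the window of 4 of 10 members, against 2187 of 27025 genes (8.09%). CATGTG, searched on both strands, lay in that of 1 of 10, against 15.9% of genes. No match of one overlapped a match of the other. Capitals mark the matches, and each sequence is given 5′ to 3′ on the gene's strand:
Hps3 (chr3:20035316-20035385, minus strand): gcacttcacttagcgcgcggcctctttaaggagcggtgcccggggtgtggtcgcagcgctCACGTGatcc
Hps5 (chr7:46796065-46796131, minus strand): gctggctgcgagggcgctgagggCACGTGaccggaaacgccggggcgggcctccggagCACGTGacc
Hps1 (chr19:42779974-42780039, minus strand): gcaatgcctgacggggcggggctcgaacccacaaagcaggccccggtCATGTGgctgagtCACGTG
Vps33a (chr5:123573022-123573103, minus strand): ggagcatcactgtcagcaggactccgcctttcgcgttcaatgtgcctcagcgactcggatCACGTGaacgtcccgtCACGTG

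In *Hps3* the E-box began 15 bases before the RefSeq start. *Hps5* held a pair of them, beginning 227 and 192 bases before the RefSeq start. GENCODE vM21 places the 5′ end of *Hps5* 183 bases further upstream, so from there the distances are 44 and 9 bases. *Vps33a* also held a pair, 28 and 12 bases before its RefSeq start. GENCODE's start of *Vps33a* lies 23 bases upstream of RefSeq's, so the first E-box began 5 bases before it, and the second lay within the GENCODE transcript, as did the last 17 bases printed. In *Hps3* GENCODE's start is 5 bases upstream, which makes the distance 10 bases. In both annotations the single E-box of *Hps1* began 1 base before the start and ran into the transcript. The windows of *Hps4*, *Hps6*, *Dtnbp1*, *Ap3b1*, *Ap3d1* and *Lyst* did not contain these letters. A match is a run of letters, and binding was not measured.

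**Figure D1:**
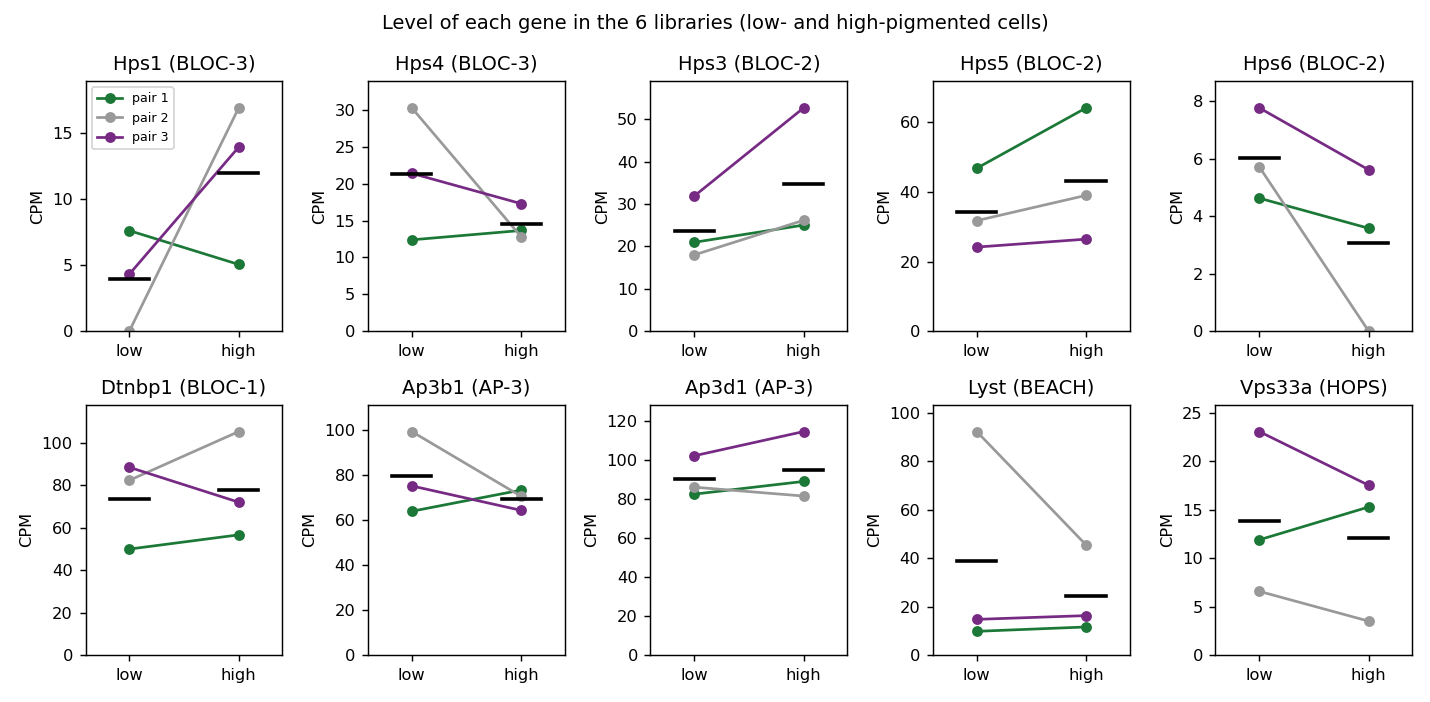
Level of each member in CPM (vertical axis from 0, a scale for each gene) in low- and high-pigmented cells; lines join the 2 libraries of a pair and black bars are group means (n = 3). Lines cross or run in different directions for most genes, while *Hps3* and *Hps5* slope up and *Hps6* slopes down in each pair.

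*Hps3*, mutated in the cocoa mouse, lies on chromosome 3 (GRCm38, 19995945 to 20035315, minus strand) and its longest coding transcript has 17 exons. Its level was 25.1, 26.2 and 52.7 CPM in the HPC libraries of pairs 1, 2 and 3 and 21.0, 18.01 and 31.9 CPM in the LPC libraries. Each HPC value exceeded its LPC partner, but the LPC library of pair 3 lay above the HPC libraries of pairs 1 and 2, so the groups overlapped. The within-pair log2 differences were 0.25, 0.53 and 0.72. Only the difference of pair 3 lay outside the 95% range that counting error alone allows. Group means were 34.7 ± 15.7 CPM in HPC and 23.6 ± 7.32 CPM in LPC (SD, n = 3 each), and the fitted log2 change was 0.55 ± 0.51 (SE; edgeR adjusted p 0.9996). With pair 2 left out and the pair as a block, it was 0.50 ± 0.22 (SE), with an unadjusted p of 0.0327 and an adjusted p of 0.344, and 12.1% of genes had an unadjusted p under 0.05 in that fit. *Hps3* shares stretches of up to 144 nucleotides at 95% identity or more with transcripts of 43 other genes, of which 5 have rows here, and an exon of *Cp* lies on the opposite strand, so its counts are uncertain. *Cp* itself had 256, 0 and 62 counts in HPC and 492, 146 and 197 in LPC, lower in HPC in each pair.

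*Hps5*, mutated in the ruby-eye-2 mouse, lies on chromosome 7 (46760466 to 46796064, minus strand; 23 exons). It had 64.1, 39.0 and 26.4 CPM in the HPC and 46.8, 31.7 and 24.1 CPM in the LPC libraries of pairs 1, 2 and 3. Pair 1 was highest and pair 3 lowest in both groups, and within each pair the HPC value was the higher one. The within-pair log2 differences were 0.45, 0.29 and 0.13. Only the difference of pair 1 lay outside the 95% range that counting error alone allows. Over the groups the log2 fold change was 0.34 ± 0.49 (SE), with means of 43.2 ± 19.2 and 34.2 ± 11.5 CPM (SD, n = 3 each). Without the HPC library of pair 1 the fold change was -0.082, in the opposite direction. Stretches of up to 122 nucleotides are shared with 4 other genes, which all have rows here.

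*Hps6*, the single-exon gene mutated in the ruby-eye mouse, lies on chromosome 19 (46003508 to 46006173, plus strand). It was the least abundant member, with 22, 0 and 48 counts in the HPC and 28, 20 and 74 counts in the LPC libraries of pairs 1, 2 and 3. In CPM these were 3.58, 0 and 5.61 against 4.63, 5.72 and 7.77. The LPC value was higher in each pair, and the groups overlapped. Within pairs 1 and 3 the log2 differences were -0.34 and -0.45, both inside the 95% range that counting error alone allows for those reads. In pair 2, where the HPC library had no read, the level was at least 3.27-fold lower in HPC if 3 counts are the limit that a count of 0 allows in that library and the 20 LPC reads are taken as exact. With counting error in both libraries, the 95% interval of the log2 difference ended at -1.28, a smaller difference. The fitted log2 fold change was -0.92 ± 1.23 (SE), and -0.43 ± 0.51 (SE; adjusted p 0.816) with pair 2 left out and the block. Thus the BLOC-2 subunits kept 1 sign each across pairs, *Hps6* opposite to the others, with 0 of 3 called in either fit. A sign kept in all 3 pairs was also found in 30.1% of all genes tested. Most of these BLOC-2 differences lay inside the range of counting error, and that of *Hps6* in pair 2 rests on a count of 0.

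The subunits also differed between pairs. From pair 1 to pair 3 *Hps3* differed by 1.06 in HPC and 0.60 in LPC on the log2 CPM scale, and *Hps5* by -1.27 and -0.94. For *Hps6* these values were 0.60 and 0.71, larger in size than its group change of -0.43 from those pairs with the block. Over all 6 libraries, pair 2 included, its group change was -0.92. The ratio of *Hps3* to *Hps5* counts, which does not depend on normalisation, was 0.391, 0.672 and 1.996 in the HPC and 0.449, 0.568 and 1.32 in the LPC libraries of pairs 1, 2 and 3. The order of pairs was the same in both groups. Within pair 3 the ratios lay farther apart (1.996 in HPC, 1.32 in LPC) than those of pairs 1 and 2 in LPC (0.449 and 0.568).

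*Hps1*, mutated in the pale ear mouse, lies on chromosome 19 (42755105 to 42779978, minus strand; 18 exons). Its counts were 31, 29 and 119 in the HPC and 46, 0 and 41 in the LPC libraries of pairs 1, 2 and 3, or 5.04, 16.9 and 13.9 against 7.60, 0 and 4.30 CPM. The HPC library of pair 1 lay below its LPC partner, whereas those of pairs 2 and 3 lay above theirs. The within-pair log2 difference was -0.56 in pair 1 and 1.62 in pair 3, and in pair 2 the level was at least 19.7-fold higher in HPC against a limit of 3 counts, with the HPC reads taken as exact. With counting error in both libraries, the 95% interval of the log2 difference in pair 2 began at 3.91, a smaller difference. Its log2 fold change of 1.56 ± 1.30 (SE) was the largest among the members, with means of 11.9 ± 6.16 and 3.97 ± 3.81 CPM (SD, n = 3 each). Pairs 1 and 3 alone, with the block, gave 0.60 ± 0.52 (SE; adjusted p 0.727). An exon of *Gm16244* on the opposite strand, with at most 12 counts in any library, overlaps *Hps1*.

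*Hps4*, the other BLOC-3 subunit and the light ear gene, lies on chromosome 5 (112343083 to 112378414, plus strand; 14 exons). It had 13.7, 12.8 and 17.3 CPM in the HPC and 12.4, 30.3 and 21.4 CPM in the LPC libraries of pairs 1, 2 and 3. The within-pair log2 differences were 0.14, -1.22 and -0.30, so pair 1 differed in sign from the others and the groups overlapped. Its log2 fold change was -0.54 ± 0.58 (SE) over all libraries and -0.11 ± 0.30 (SE) with pair 2 left out and the block. The fitted changes of the 2 BLOC-3 subunits had opposite signs, and the 2 subunits also had opposite signs within each pair. In pair 1 both differences lay inside the 95% range of counting error, and in pair 3 that of *Hps4* did while that of *Hps1* did not. In pair 2 both lay outside it, with a count of 0 for *Hps1* in the LPC library. An exon of *Gm20636*, which is not a row of the table, overlaps *Hps4* on the opposite strand.

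*Dtnbp1*, the dysbindin gene mutated in the sandy mouse, lies on chromosome 13 (44922075 to 45002147, minus strand; 10 exons). Its level was 56.6, 105 and 72.0 CPM in the HPC and 49.9, 82.3 and 88.5 CPM in the LPC libraries of pairs 1, 2 and 3. HPC was above LPC in pairs 1 and 2 and below it in pair 3, with log2 differences of 0.18, 0.35 and -0.30. The group means of 78.0 ± 24.9 and 73.6 ± 20.7 CPM (SD, n = 3 each) differed by 0.081 ± 0.42 (SE) on the log2 scale. Leaving out pair 2 and using the block turned the sign, to -0.079 ± 0.18 (SE), with a 95% interval from -0.46 to 0.30.

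The AP-3 subunits were among the most abundant and the most even members. *Ap3b1*, the pearl gene on chromosome 13 (94358960 to 94566317, plus strand; 27 exons), had 73.2, 70.4 and 64.2 CPM in the HPC and 63.8, 99.2 and 75.1 CPM in the LPC libraries of pairs 1, 2 and 3. Its within-pair log2 differences were 0.20, -0.49 and -0.22, and its fold change was -0.20 ± 0.36 (SE). *Ap3d1*, the mocha gene on chromosome 10 (80706956 to 80742264, minus strand; 31 exons), had 89.0, 81.5 and 114.6 CPM in HPC and 82.5, 86.05 and 102 CPM in LPC. Its mean over the 6 libraries, 92.6 CPM, was the highest of the 10 and lay at the 86.7th percentile of genes tested. The log2 differences of *Ap3d1* were 0.11, -0.078 and 0.17, and its fold change was 0.076 ± 0.35 (SE). With pair 2 left out and the block, the 95% intervals of the log2 fold change ran from -0.40 to 0.34 for *Ap3b1* and from -0.20 to 0.45 for *Ap3d1*. Counts of *Ap3b1* per count of *Ap3d1* were 0.823, 0.864 and 0.560 in the HPC and 0.774, 1.15 and 0.735 in the LPC libraries, or 0.749 ± 0.165 and 0.887 ± 0.231 (SD, n = 3 each), a difference smaller than either SD.

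*Lyst*, the beige gene on chromosome 13 (13590397 to 13778803, plus strand; 53 exons in a 13181-nucleotide transcript), stood apart by pair. Its level was 45.4 CPM in the HPC and 92.3 CPM in the LPC library of pair 2, against 9.75 to 16.3 CPM in the other 4 libraries. Raw counts were 71, 78 and 139 in the HPC and 59, 323 and 140 in the LPC libraries of pairs 1, 2 and 3. The within-pair log2 differences were 0.24, -1.02 and 0.14. The fold change of -0.69 ± 0.93 (SE) rested on pair 2 and turned to 0.18 ± 0.33 (SE; adjusted p 0.898) when that pair was left out and the block used. Pair 2 is also the pair with the RP23-81C12.3 reads and the undetected genes, and the part of that composition in the *Lyst* level was not tested.

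*Vps33a*, the buff gene on chromosome 5 (123528659 to 123573038, minus strand; 13 exons), had 15.3, 3.49 and 17.5 CPM in the HPC and 11.9, 6.58 and 23.1 CPM in the LPC libraries of pairs 1, 2 and 3. Pair 2 was lowest in both groups, with 6 and 23 counts. The within-pair log2 differences were 0.35, -0.85 and -0.39, and the fold change was -0.18 ± 0.82 (SE) over all libraries and -0.054 ± 0.30 (SE; adjusted p 0.971) with pair 2 left out and the block.

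**Figure D2:**
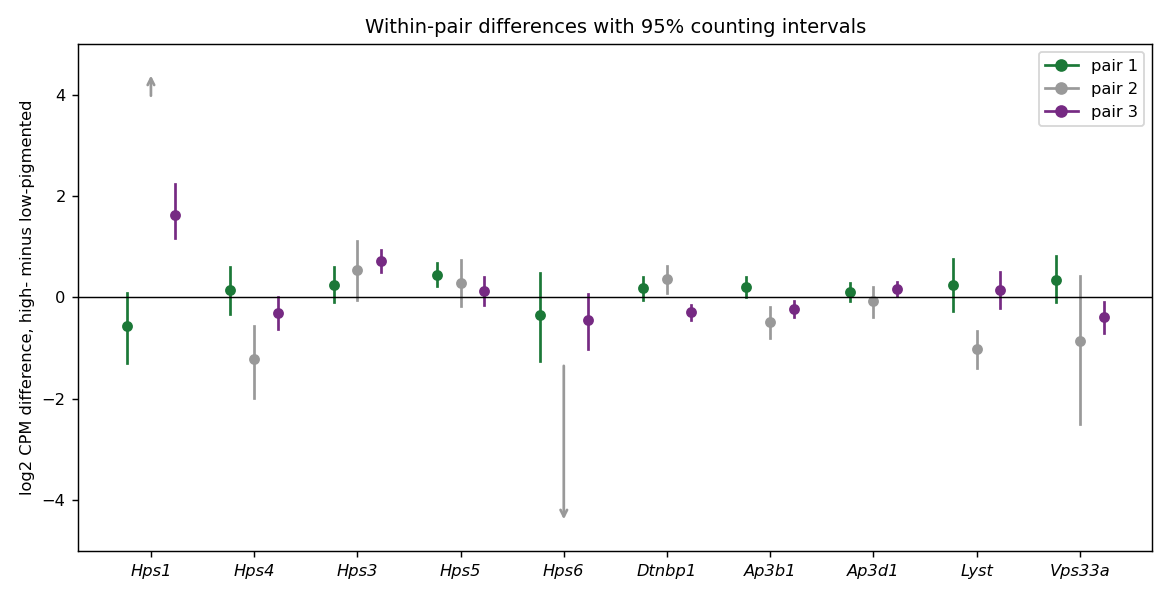
Within-pair log2 CPM difference (HPC minus LPC, prior count of 2) of each member; bars are 95% exact binomial intervals for counting error only, and arrows mark pairs in which 1 library had no read. Most bars of pair 1 cross 0, with the exception of *Hps5*. The points of *Hps3* and *Hps5* lie above 0 in each pair, but the bars cross 0 for *Hps3* in pairs 1 and 2 and for *Hps5* in pairs 2 and 3.

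Set against counting error alone, the difference lay outside the 95% exact binomial interval of no difference for 1 of 10 members in pair 1, for 6 in pair 2 and for 6 in pair 3, where the same held for 41.6%, 67.6% and 51.9% of all genes tested. These intervals compare 2 libraries, not the conditions, and reads that are copies of 1 molecule make them too narrow. HPC was the higher library for 8 members in pair 1, 4 in pair 2 and 5 in pair 3, beside 51.3%, 40.8% and 49.8% of all genes tested. The median difference of the members was 0.19, -0.29 and -0.048 in pairs 1, 2 and 3, beside 0.016, -0.20 and -0.0024 for all genes. The median size of the difference, without its sign, was 0.24, 0.69 and 0.30 for the members and 0.30, 1.07 and 0.32 for all genes.

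Splitting the sum of squares of log2 CPM over the 6 libraries showed where each member varied. The pair took the largest share for 7 of 10 members, and for 69.2% of all genes tested. It was 93.0% for *Lyst*, 89.4% for *Vps33a*, 88.9% for *Hps5*, 88.0% for *Ap3d1*, 84.9% for *Dtnbp1* and 70.1% for *Hps3*. The share of the sorted group was 28.5% for *Hps6*, 26.1% for *Hps3*, 25.9% for *Hps4*, 16.7% for *Ap3b1* and 9.21% for *Hps5*. For *Ap3d1*, *Vps33a*, *Dtnbp1* and *Lyst* it was 3.41%, 2.79%, 1.17% and 0.860%, beside a median of 10.2% over all genes. For *Hps1* it was 35.9%, the highest among the members, with 47.5% left to neither term. *Hps1* and *Hps6* each had a count of 0 in a library of pair 2.

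The pathway partners, 62 genes in 8 lists named from textbook complexes, were read in the same fit. Of the 59 that passed the filter on low counts, 0 had an adjusted p under 0.05 and 1 an unadjusted p under 0.05. Over all genes tested these shares were 0% and 0.336%. The 1 partner was *Vps39*, a HOPS subunit. It had 113, 146 and 158 counts in the HPC and 46, 52 and 138 in the LPC libraries of pairs 1, 2 and 3. It was higher in HPC in each pair (log2 differences 1.24, 2.49 and 0.34), and its fitted log2 change was 1.71 ± 0.74 (SE; adjusted p 0.9996). From pairs 1 and 3 with the block it was 0.77 ± 0.33 (SE; adjusted p 0.327). Without the HPC library of pair 2 alone, and without the block, it fell to 0.59 ± 0.51 (SE).

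Of the 7 other BLOC-1 subunit genes, 5 had a fold change above 0 and 2 below, with a median of 0.16 and 0 called, beside a median of -0.038 over all genes tested. With pair 2 left out and the block, their median was -0.10. Their pair 2 differences were large in both directions. *Snapin*, whose product binds SNAP-25 and dysbindin, had log2 differences of -0.52, 1.59 and 0.052, and *Bloc1s1* had 42, 0 and 49 counts in HPC and 8, 14 and 22 in LPC. *Bloc1s2*, listed in the table under its older name *Bloc1s2a*, had 0 counts in the HPC library of pair 2 and 91 to 149 in the others. None of the 7 kept 1 sign in all 3 pairs.

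Of 4 other AP-3 subunit genes tested, 3 were above 0 and 1 below, with a median of 0.15, which was -0.023 with pair 2 left out and the block. The medium chains differed between pairs. *Ap3m1* had log2 differences of -1.13, 1.26 and 0.71 and *Ap3m2* of 0.79, -0.63 and 0.87. The small chains had opposite signs. *Ap3s1* was lower in HPC in each pair, with log2 differences of -0.18, -0.44 and -0.044, and *Ap3s2* was higher in each, with 0.13, 1.05 and 0.046. Of all genes tested, 17.2% were lower in HPC in each pair and 12.9% higher. Without the LPC library of pair 2 the fold change of *Ap3s2* was -0.12. *Ap3b2*, the neuronal β subunit, had 3, 10 and 0 counts in HPC and 0 in each LPC library, and was not tested.

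Among the 9 HOPS and CORVET partners, 4 were above and 5 below 0, with a median of -0.0061 over all libraries and 0.40 with pair 2 left out and the block. For the 7 genes of the list around Rab32 and Rab38, the GTPases that BLOC-3 activates, the medians were -0.039 and -0.066. *Rab38*, mutated in the chocolate mouse, had a mean of 386 CPM and log2 differences of 0.15, -0.30 and -0.18. *Rab32* had 22.02 CPM and differences of 0.075, -0.50 and -0.18. Of the SNARE and sorting list 7 of 8 genes were above 0 (median 0.27), of the AP-1 adaptor 4 of 7 (median 0.0041) and of the BEACH relatives of *Lyst* 3 of 7 (median -0.14). With pair 2 left out and the block, these medians were 0.081, 0.070 and 0.42. The largest fold change in the AP-1 list, 2.58 ± 1.53 (SE) for *Ap1s3*, rested on 1 library: it had 3300 counts in the HPC library of pair 2 and 234 to 899 in the others, and without that library its fold change was -1.40.

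**Figure D3:**
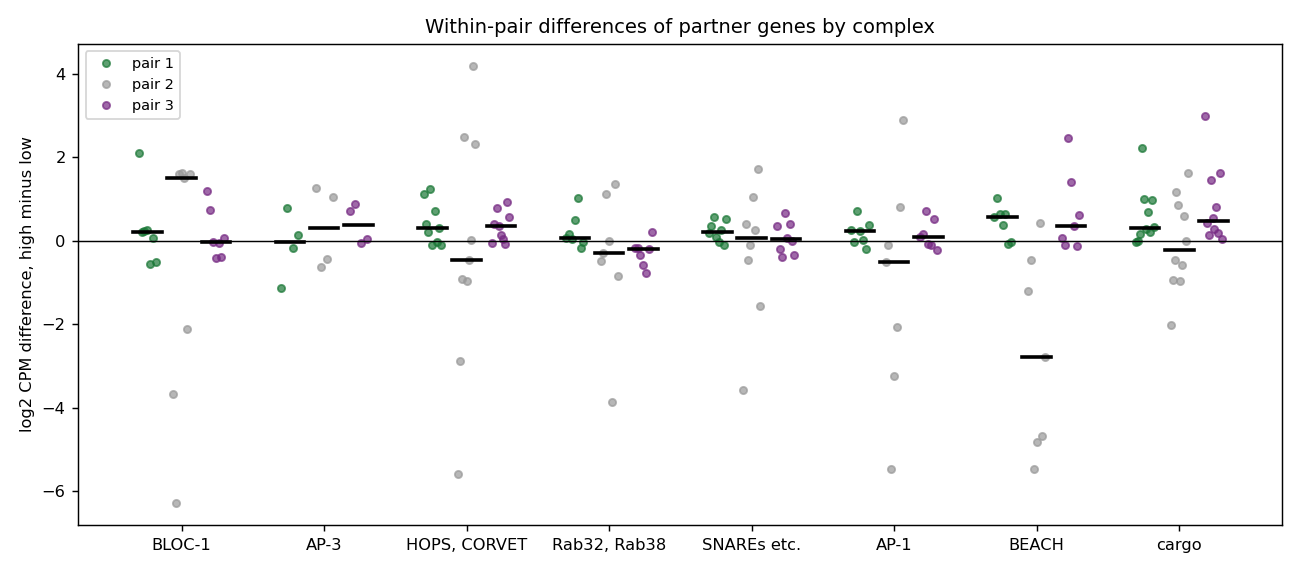
Within-pair log2 CPM difference (HPC minus LPC) of the tested partner genes by list; each point is a gene, coloured by pair, and black bars are medians. Points of pair 2 spread farthest in most lists, and the cargo list of pair 3 lies at or above 0.

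Cargo genes of the same route were read in the same fits. Over all 6 libraries 10 of 10 cargo and melanosome membrane genes had a fold change above 0 (median 0.37), with 0 called, where 47.0% of all genes tested were above 0. With the pair as a block on the same libraries 7 of 10 were above 0 (median 0.46), and *Tyrp1* (-0.17), *Atp7a* (-0.11) and *Dct* (-0.058), named here after their values were seen, were below. Without the HPC library of pair 3 the median of the list was -0.053, and without the LPC library of pair 2 it was -0.038. With pair 2 left out and the block, 3 of 10 cargo genes rose in HPC, where 0.932% of the 11906 genes tested were called in that direction and 1.3% in either. They were *Pmel*, the fibril matrix gene, at a log2 change of 0.74 ± 0.11 (SE; adjusted p 0.000811), *Slc45a2*, a melanosome transporter, at 0.76 ± 0.13 (SE; adjusted p 0.00281), and *Oca2*, a melanosome anion channel, at 1.80 ± 0.35 (SE; adjusted p 0.00858). In pair 2, which that fit leaves out, *Pmel* was lower in HPC by a log2 difference of -0.58, and the block on all 6 libraries gave it 0.32 ± 0.32 (SE; adjusted p 0.927). With pair 2 left out, 0 of 10 members and 0 of 49 partners outside the cargo list passed. In that fit the upper limit of the 95% interval was below 0.74, the value of *Pmel* in the same fit, for *Hps4*, *Hps5*, *Hps6*, *Dtnbp1*, *Ap3b1*, *Ap3d1* and *Vps33a*, and above it for *Hps1*, *Hps3* and *Lyst*. The value of *Pmel* is that of a called gene, and its own 95% interval ran from 0.51 to 0.97. The median of the cargo list in that fit was 0.50, and only *Dtnbp1*, *Ap3b1* and *Ap3d1* had an upper limit below that. The difference between members and cargo genes was not itself tested. Earlier results of these data showed the cargo list higher in HPC, so its count is not independent evidence. *Tyr* had 2 and 20 counts in pair 2 and log2 differences of -0.037, -2.01 and 2.99, and *Dct* had a fold change of 0.030 ± 0.58 (SE).

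**Figure D4:**
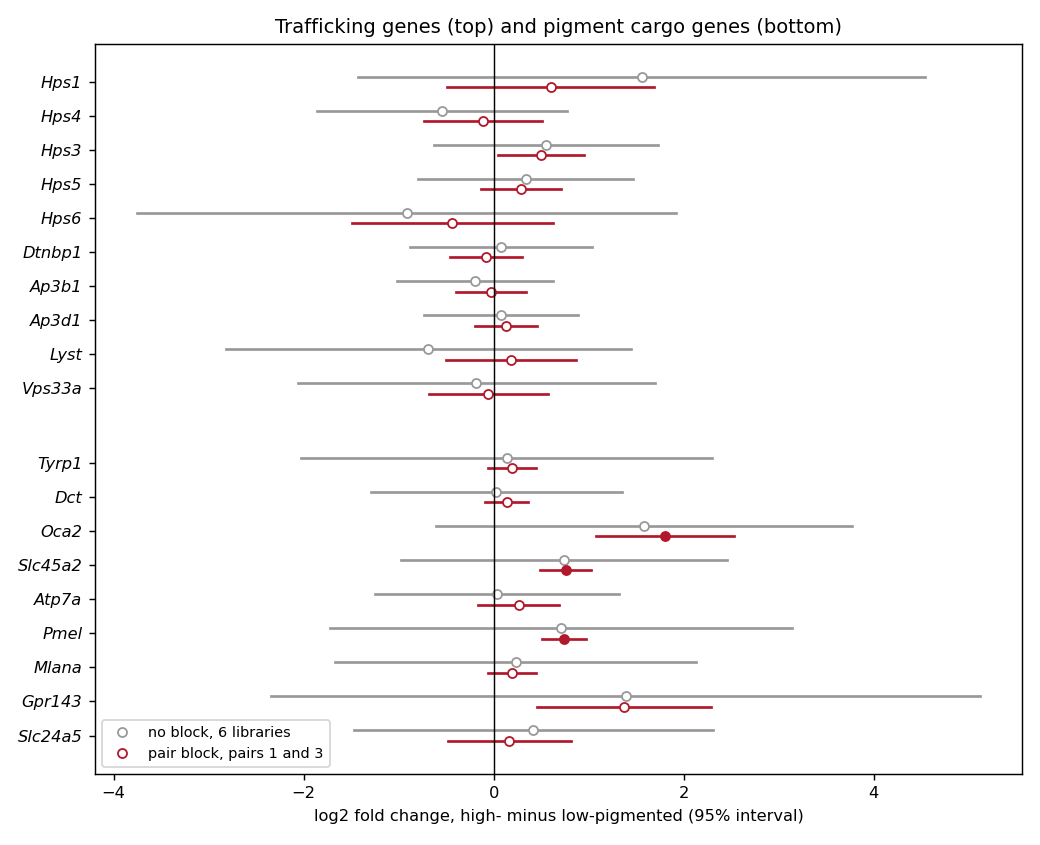
Log2 fold change (HPC minus LPC) with 95% intervals for the 10 members and 9 cargo genes, from all 6 libraries without a block (grey) and from pairs 1 and 3 with the pair as a block (red); filled points have an adjusted p under 0.05. Filled points appear for *Pmel*, *Slc45a2* and *Oca2* in red and for no member; *Tyr* is left out because its red interval ran from -10.1 to 12.5.

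Symbols in the second column of the table would have changed which rows are read. Of the 10 members, 9 stand under their own human symbol, while *Ap3b1* is listed as AP3B2, the symbol that the *Ap3b2* row also carries. Of 12 BLOC-1 and AP-3 partner rows, 6 stand under their own human symbol.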

How the data were processed

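Total RNA of sorted cells was made into 3′-end libraries with Lexogen's QuantSeq forward kit, per the labels' protocols. The authors deposited raw counts per gene and library. STAR and the build GRCm38 are named in the submitters' processing notes, and HTSeq in the name of the table. Versions, annotation and use of strand are not given in the sources used here, nor are molecular identifiers, so reads of a gene and its antisense partner, or copies of 1 molecule, cannot be told apart. Tally rows (no feature, 12.4% to 29.5% of tallied reads; ambiguous, 0.487% to 2.51%) were left out.

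Counts were tested with edgeR 4.0.16 in R 4.3.3 (quasi-likelihood, robust, filterByExpr at a minimum count of 10, TMM, no covariate), adjusted over all genes by the Benjamini-Hochberg method at 0.05. Within-pair differences are log2 CPM with a prior count of 2. Alternatives were DESeq2 1.42.0, limma 3.58.1 (voom with sample weights and the block), other size factors, no filter, leaving out 3 dominant rows, the block, and leaving out pair 2 or each library. Deviations from the group means were correlated within each suffix (across genes, 0.466, 0.316 and 0.422, each above 0.1), so the suffix was taken to pair libraries. The smallest chi-square between libraries, divided by its degrees of freedom, was 13.5, so none was a copy of another. The fits were tested on simulated counts.

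Members, lists, motifs and alternatives were chosen with earlier results of these data known. The rule for naming genes took all members, and allowed BLOC-1, AP-3, HOPS core and Rab genes, the extremes of the other lists and any gene called in an alternative. Positions are from GENCODE vM21 (GRCm38), promoter sequences from RefSeq, and shared sequence (at least 100 nucleotides at 95% identity) from blastn 2.17.0. Figures were drawn with matplotlib 3.10.9.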

Additional observations from a re-analysis of the deposited data

How the results depend on the processing

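No member was called in any of the 14 alternatives. Of 140 member fold changes under them, 127 kept their sign, and the adjusted p of the members ranged from 0.344 to 1. The count over all genes, 0, changed to 5 with DESeq2, to 34 with limma-voom, sample weights and the block, and to 155 with the block on pairs 1 and 3; partner genes called changed from 0 to 2 and 3 in the last pair of fits. The replicate block with all 6 libraries called 0 genes and changed no call; it turned *Dct* to -0.058, *Tyrp1* to -0.17 and *Atp7a* to -0.11. In 3 fits, namely pairs 1 and 3 without the block, the same pairs with it, and limma-voom, in that order, the sign turned for *Dtnbp1* (-0.12, -0.079, -0.064), *Lyst* (0.17, 0.18, 0.052), *Snapin* (-0.24, -0.23, -0.17), *Bloc1s2a* (0.40, 0.47, 0.39) and *Ap3m1* (-0.31, -0.21, -0.13). Leaving out each library in turn gave ranges across 0 of -0.082 to 0.64 for *Hps5*, -0.19 to 0.26 for *Dtnbp1*, -0.091 to 0.18 for *Ap3d1*, -1.46 to 0.97 for *Lyst*, -0.55 to 0.41 for *Vps33a*, -0.069 to 1.35 for *Pmel*, -0.54 to 0.48 for *Dct*, -1.06 to 0.13 for *Bloc1s2a*, -0.18 to 0.78 for *Ap3m1*, -0.14 to 0.87 for *Ap3m2*, -0.47 to 0.15 for *Rab32*, -0.44 to 0.39 for *Rab38*, -0.12 to 0.57 for *Ap3s2*, -0.33 to 0.67 for *Tyrp1*, -0.41 to 0.40 for *Atp7a* and -1.40 to 4.10 for *Ap1s3*. The causes were not tested. The 30 within-pair differences moved by less than their SD over pairs with a prior count of 0.5 or with the other size factors. Where a library had a count of 0, that SD is itself widened by the value and the value depends on the prior count. With a prior count of 0.5 the pair 2 difference went from 5.67 to 7.65 for *Hps1* and from -4.16 to -6.10 for *Hps6*. Genes with few reads, such as *Hps6*, are limited by depth in single libraries.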
